A study of Mus musculus with 80 samples.

Results

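Stab1, Stab2, Clec4g, Lyve1, Kdr, Pecam1, Bmp2, Wnt2, Rspo3 and Oit3 are genes known for their expression in the sinusoidal endothelium of the liver, and their levels are described here. They were found by symbol in a gene count table of mouse liver, and 10 of 10 were present among its 22103 rows. The livers came from female Balb-C mice aged 10 to 12 weeks that were gavaged once a day for 7 days. The compound was PFESA-BP2 (Nafion byproduct 2), a perfluorinated ether acid that carries a sulfonate. There were 5 groups of 4 mice with 1 library per mouse. Controls had 0 mg/kg-day, and the other groups 0.03 mg/kg-day, then 0.3, then 3.0, and 6.0 as the top dose. The vehicle of the controls is unsettled, since the titles name DMSO and the design text names deionized water. RNA was taken from whole liver tissue, so every value is the level in the mixture of all liver cells.

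Liver sinusoidal endothelial cells line the capillaries between the plates of hepatocytes. They are perforated, lack a continuous basement membrane, and clear waste molecules from the blood through scavenger and lectin receptors, which include stabilin-1 and stabilin-2 (Stab1, Stab2), LSECtin (Clec4g) and the hyaluronan receptor LYVE-1. Like other endothelia they carry the VEGF receptor VEGFR2 (Kdr) and the junction protein CD31 (Pecam1). They also send signals to their neighbours, called angiocrine signals. WNT2 and R-spondin 3, made near the central vein, sustain WNT signalling in nearby hepatocytes, and BMP2 induces the iron hormone hepcidin (Hamp) in hepatocytes.

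Total counts per library ranged from 13086755 to 21466978, and the members had between 19 (Lyve1) and 1821 (Kdr) counts in a library. Levels are in CPM, which are counts scaled to the library total after TMM adjustment of that total, and 15197 genes passed the filter on low counts, the 10 members among them. The series title calls the assay targeted, while the table holds 22103 genes, and the panel or probes are not described in the sources used here. Within the groups, libraries 3 (control), 11 (0.03), 15 (0.3), 19 (3.0) and 23 (6.0 mg/kg-day) stood apart from the other 15, 1 in each group and each the third of its group by library number. They were separated by the leading principal component of the other genes' deviations from their group means, which held 42.7% of that variation. With a term for these 5 libraries, 3789 genes were higher and 3830 lower in them. The libraries were picked from values of the same genes, so many such calls follow from the choice. These counts describe it and are no independent test. "Rose", "fell" and "passed" stand for an adjusted p under 0.05 in edgeR's quasi-likelihood test (Benjamini-Hochberg, over all genes tested). Changes are log2 fold changes ± SE.

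Levels between genes were compared as CPM per kilobase of exon, which assumes reads from the whole length of a transcript and would not rank genes counted by targeted probes. By the mean over 20 libraries, Clec4g was the highest at 17.3 ± 4.73 CPM per kilobase (SD, n = 20), followed by Oit3 at 8.54, Kdr at 7.09, Stab2 at 5.01, Bmp2 at 3.52 and Stab1 at 2.73. Wnt2 at 1.83, Rspo3 at 1.76 and Pecam1 at 1.67 CPM per kilobase lay close together, and Lyve1 was the lowest at 0.715. For every pair of neighbours in this order the ranges over libraries overlapped. Clec4g was nevertheless above Oit3, Kdr above Stab2, and Pecam1 above Lyve1 in 20 of 20 libraries, while Wnt2 was above Rspo3 in 12 and Rspo3 above Pecam1 in 13. All 10 members were thus detected in every library, Lyve1 with the fewest counts (19 to 91). Other sinusoidal markers from a separate list (such as Mrc1, Fcgr2b, Gpr182 and Gata4) were present as well, with 28 of 30 symbols in the table. The list holds Plpp3 and Adgrl4 also under the older symbols Ppap2b and Eltd1.

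At 6.0 mg/kg-day against control, the sinusoidal genes did not move as a block. Of 10 members 6 passed the test, 2 of them higher (Lyve1 and Pecam1) and 4 lower (Stab1, Stab2, Bmp2 and Rspo3). Over all 15197 genes tested, 22.4% passed in this comparison, 11.2% higher and 11.2% lower. The median change of the members was -0.17, against -0.02 for all genes. Clec4g, Kdr, Wnt2 and Oit3 did not pass. The groups did not overlap for 4 members, Lyve1 and Pecam1 on the high side and Stab2 and Bmp2 on the low side, and for 9.68% and 8.86% of all genes on those sides. In bulk tissue, fewer endothelial cells and less RNA of a gene per cell cannot be told apart.

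**Figure D1:**
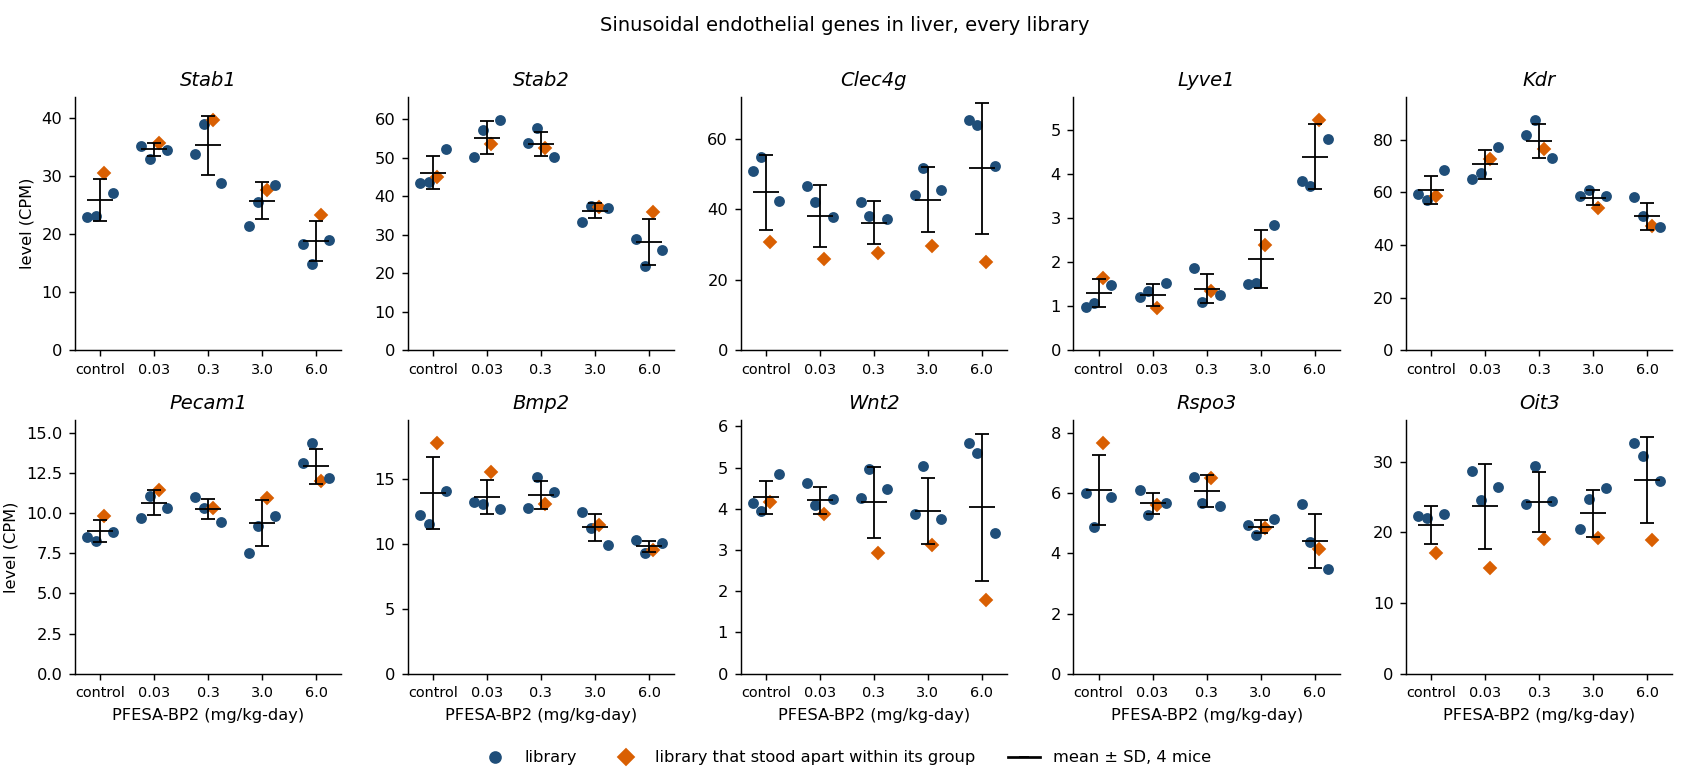
Level of each gene in CPM (y axis, linear, from 0) in every liver library by dose of PFESA-BP2 (x axis, low to high). Points are libraries, diamonds are the 5 libraries that stood apart, and bars are the mean ± SD of 4 mice. Stab2 lies at 21.8 to 35.9 CPM at 6.0 mg/kg-day, against 43.3 to 52.3 CPM in controls, and Lyve1 at 3.73 to 5.24 CPM, against 0.987 to 1.64 CPM in controls.

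The stabilins are large scavenger receptors that take up hyaluronan, oxidized lipoproteins and other waste. Stab2 (chromosome 10, 86841198 to 87008025, minus strand, GRCm38) had 28.9, 21.8, 35.9 and 26.1 CPM in the 4 livers at 6.0 mg/kg-day, against 43.3, 43.6, 45.1 and 52.3 CPM in the control livers. Every liver at 6.0 mg/kg-day lay below every control liver. The mean was 28.2 ± 5.95 CPM at 6.0 mg/kg-day and 46.1 ± 4.22 CPM in controls (SD, n = 4 each), a change of -0.71 ± 0.13 (edgeR adjusted p = 0.000317). In the 3.0 mg/kg-day livers Stab2 was at 33.4 to 37.6 CPM, also below every control liver, but the change of -0.35 ± 0.12 did not pass (edgeR adjusted p = 0.149). At 0.03 and 0.3 mg/kg-day it was at 50.1 to 59.8 and 50.1 to 57.6 CPM, and both ranges overlapped that of the controls.

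Stab1 (chromosome 14, 31139013 to 31168641, minus strand, GRCm38) had 18.3, 14.9, 23.3 and 19.0 CPM in livers at 6.0 mg/kg-day, against 23.0, 23.1, 30.5 and 27.1 CPM in control livers. The groups overlapped by 1 liver, since library 23 lay just above the lowest 2 controls. The change was -0.46 ± 0.14 (edgeR adjusted p = 0.0265). It did not pass without library 3, 4, 21 or 22, each left out alone, with changes of -0.37, -0.43, -0.43 and -0.36 and edgeR adjusted p-values of 0.0897, 0.0646, 0.0664 and 0.106. At 0.03 mg/kg-day Stab1 was at 33.0 to 35.7 CPM, above every control liver, and at 0.3 mg/kg-day at 28.8 to 39.7 CPM, which overlapped the controls through library 16. Its 21.4 to 28.5 CPM at 3.0 mg/kg-day lay largely within the range of the controls.

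The promoters of the 2 stabilin genes are shown because both genes were lower at 6.0 mg/kg-day and had their highest group means at 0.03 and 0.3 mg/kg-day. They cover 300 bases around the RefSeq start of each gene, most of them upstream, in build GRCm38.p6, and both are on the minus strand, read 5′ to 3′. Capitals mark AGGAA, a longer form of the GGAA core that ETS factors bind, on either strand. Other matches to GGAA are not marked. Stab1 lies at chr14:31168592-31168891 and Stab2 at chr10:87007893-87008192.
Stab1: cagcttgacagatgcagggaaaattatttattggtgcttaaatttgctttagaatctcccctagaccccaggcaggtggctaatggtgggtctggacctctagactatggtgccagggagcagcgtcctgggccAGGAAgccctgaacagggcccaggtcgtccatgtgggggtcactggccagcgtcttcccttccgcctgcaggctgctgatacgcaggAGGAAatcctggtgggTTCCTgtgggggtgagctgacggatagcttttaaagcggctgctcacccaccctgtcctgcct
Stab2: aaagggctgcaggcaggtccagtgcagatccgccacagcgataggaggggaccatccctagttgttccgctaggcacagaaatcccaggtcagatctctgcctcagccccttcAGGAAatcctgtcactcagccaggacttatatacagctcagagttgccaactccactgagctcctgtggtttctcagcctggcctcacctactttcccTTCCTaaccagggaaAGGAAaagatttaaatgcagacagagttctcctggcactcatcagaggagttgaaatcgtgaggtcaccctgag
Each window held 3 matches to AGGAA and 0 to GATAA, a longer form of the GATA core of GATA sites. The shorter GATA occurs in both windows and was not counted. Of 32851 mouse promoters of this length, 66.7% held AGGAA and 25.4% held GATAA on either strand. RefSeq promoters were found for 5 of 10 members. The others among these 5 held 4 (Clec4g), 1 (Kdr) and 0 (Wnt2) matches to AGGAA, and Wnt2 alone held GATAA, with 2 matches.

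LYVE-1 is a hyaluronan receptor of sinusoidal and lymphatic endothelium. Lyve1 (chromosome 7, 110850607 to 110863239, minus strand) had 3.85, 3.73, 5.24 and 4.79 CPM in livers at 6.0 mg/kg-day, against 0.987, 1.07, 1.64 and 1.48 CPM in control livers. Every liver at 6.0 mg/kg-day was above every control liver and above every liver at the lower doses. The mean was 4.40 ± 0.732 CPM at 6.0 mg/kg-day and 1.29 ± 0.316 CPM in controls (SD, n = 4 each). Its change of 1.78 ± 0.25 was the largest of the 10 genes in either direction (edgeR adjusted p = 2.43e-05). The livers at 3.0 mg/kg-day had 1.51, 1.54, 2.39 and 2.85 CPM of Lyve1, so that 2 livers were within the control range and 2 above it, and the change of 0.69 ± 0.25 did not pass (edgeR adjusted p = 0.159). Of the list of lymphatic markers, 3 of 6 were tested, and Prox1, Reln and Flt4 all fell at 6.0 mg/kg-day, with changes of -0.83, -0.79 and -0.46 (edgeR adjusted p = 0.000221, 0.000722 and 0.0422). Prox1 is also a hepatocyte gene and Reln a stellate cell gene, so these are not lymphatic alone. Over all genes 11.2% fell in this comparison. The summed level of the 6 listed genes was 143 to 219 CPM at 6.0 mg/kg-day and 271 to 355 CPM in controls. Nearly all of it came from Prox1, Reln and Flt4, since Mmrn1, Pdpn and Ccl21a each had at most 1.06 CPM. Mmrn1, Pdpn and Ccl21a were below the filter on low counts. Their counts were 2 to 6, 3 to 17 and 0 to 17 per library at 6.0 mg/kg-day, and 1 to 6, 1 to 4 and 2 to 11 in controls. The part of lymphatic vessels in the rise of Lyve1 was not tested.

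LSECtin, encoded by Clec4g, is a C-type lectin that binds glycans on viruses and on T cells. Clec4g (chromosome 8, 3707064 to 3720651, minus strand) had 65.4, 63.8, 25.2 and 52.2 CPM in livers at 6.0 mg/kg-day, against 51.0, 54.8, 30.9 and 42.5 CPM in control livers. The low value in each group was that of the library that stood apart, and the groups overlapped with or without these libraries. Its change of 0.20 ± 0.26 did not pass (edgeR adjusted p = 0.612), with a 95% interval from -0.34 to 0.75. Without the 5 libraries that stood apart the change was 0.31 (edgeR adjusted p = 0.0569).

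Among the pan-endothelial receptors, Kdr and Pecam1 differed in direction at 6.0 mg/kg-day. Pecam1 (chromosome 11, 106654217 to 106750628, minus strand) had 13.1, 14.4, 12.0 and 12.2 CPM in livers at 6.0 mg/kg-day, against 8.54, 8.27, 9.84 and 8.85 CPM in control livers. The groups did not overlap, and the change was 0.54 ± 0.12 (edgeR adjusted p = 0.00231). At the other doses Pecam1 was at 9.70 to 11.4, 9.47 to 11.0 and 7.50 to 10.9 CPM from 0.03 to 3.0 mg/kg-day. Kdr (chromosome 5, 75932827 to 75978458, minus strand) had 58.3, 50.9, 47.3 and 46.9 CPM in livers at 6.0 mg/kg-day, against 59.5, 57.0, 58.6 and 68.6 CPM in control livers. Only library 21, at 58.3 CPM, reached into the control range. The change of -0.26 ± 0.10 did not pass (edgeR adjusted p = 0.0722), but it did without library 21 (edgeR adjusted p = 0.0385) and with a term for the libraries that stood apart (edgeR adjusted p = 0.0298). Kdr was highest at 0.3 mg/kg-day, where its 4 livers had 72.9 to 87.6 CPM and lay above every control liver. That change of 0.39 ± 0.10 did not pass (edgeR adjusted p = 0.131), but it did by DESeq2 (adjusted p = 0.00726). DESeq2 called 186 of all genes at this dose, against 44 by edgeR.

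Of the angiocrine ligands, Bmp2 and Rspo3 fell at 6.0 mg/kg-day and Wnt2 did not pass. Bmp2 (chromosome 2, 133552159 to 133562885, plus strand) had 10.3, 9.33, 9.56 and 10.1 CPM in livers at 6.0 mg/kg-day, against 12.2, 11.6, 17.8 and 14.1 CPM in control livers. Every liver at 6.0 mg/kg-day lay below every control liver, and the values at 6.0 mg/kg-day were the closest together of any dose group. The change was -0.50 ± 0.13 (edgeR adjusted p = 0.00783). It was -0.33 without the 5 libraries that stood apart (edgeR adjusted p = 0.0428), and library 3 held the highest control value. Bmp2 at 3.0 mg/kg-day was at 9.96 to 12.5 CPM, a change of -0.30 ± 0.13 that did not pass (edgeR adjusted p = 0.266).

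R-spondin 3 binds LGR receptors and keeps WNT receptors on the cell surface. Rspo3 (chromosome 10, 29452416 to 29535867, minus strand) had 5.66, 4.39, 4.15 and 3.47 CPM in livers at 6.0 mg/kg-day, against 6.02, 4.89, 7.68 and 5.88 CPM in control livers. The groups overlapped through library 21 at 5.66 CPM, and the change was -0.47 ± 0.15 (edgeR adjusted p = 0.0329). The fall did not pass without library 1, 3, 4, 22, 23 or 24, each left out alone, with changes from -0.49 to -0.35 and edgeR adjusted p-values from 0.0530 to 0.125. Without the 5 libraries that stood apart it was -0.30 (edgeR adjusted p = 0.190). Rspo3 shares 404 of its 3090 exon bases (13.1%) with the gene model Gm48159, and reads of the 2 genes may not be separable.

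WNT2 is a WNT ligand made by sinusoidal and central vein endothelium. Wnt2 (chromosome 6, 17988940 to 18030585, minus strand) had 5.60, 5.34, 1.79 and 3.42 CPM in livers at 6.0 mg/kg-day, against 4.15, 3.94, 4.17 and 4.85 CPM in control livers. Livers at 6.0 mg/kg-day lay on both sides of the controls, with an SD of 1.79 CPM, against 0.398 CPM in controls. The change was -0.08 ± 0.25 (edgeR adjusted p = 0.846), with a 95% interval from -0.63 to 0.46. Wnt9b, the WNT ligand of central vein endothelium, was at 0.249 to 0.634 CPM at 6.0 mg/kg-day and 0.514 to 1.12 CPM in controls, and did not pass (edgeR adjusted p = 0.0975).

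OIT3, a zona pellucida domain protein, is a secreted protein of unsettled function in sinusoidal cells. Oit3 (chromosome 10, 59422958 to 59441778, minus strand) had 32.6, 30.8, 19.0 and 27.2 CPM in livers at 6.0 mg/kg-day, against 22.4, 22.0, 17.1 and 22.7 CPM in control livers. In 3 livers at 6.0 mg/kg-day it was above every control liver, and the fourth was library 23. The change of 0.38 ± 0.20 did not pass (edgeR adjusted p = 0.175). It passed without the 5 libraries that stood apart (0.46, edgeR adjusted p = 0.00619), with a term for them (0.37, edgeR adjusted p = 0.0118), and without library 23 alone (0.52, edgeR adjusted p = 0.0425).

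**Figure D2:**
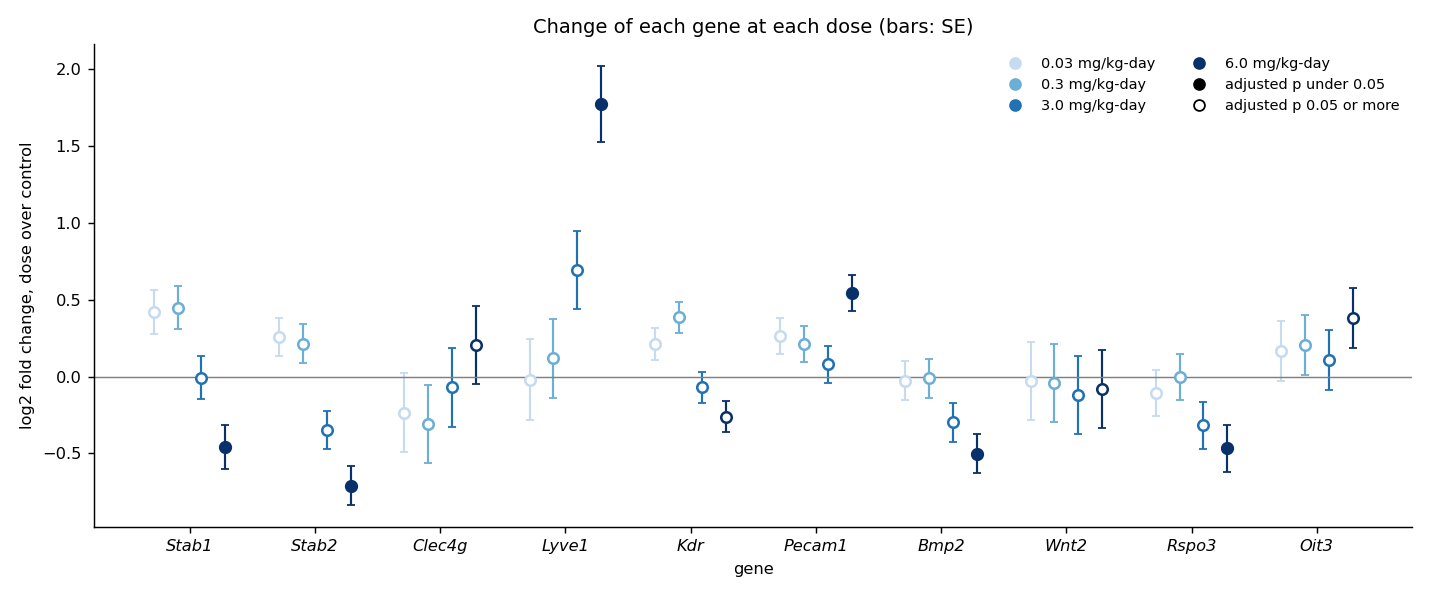
Log2 fold change over control (y axis) of each gene (x axis) at each of the 4 doses, from light to dark points, with bars of 1 SE. Filled points passed the test, and the 6 filled points are all at 6.0 mg/kg-day. The 4 comparisons share the control livers.

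At 0.03 mg/kg-day 0 of 10 members passed, and by DESeq2 and limma-voom 0 as well, while 0% of all genes passed. At an unadjusted p under 0.05 there were 4 members, Stab1, Stab2, Kdr and Pecam1, and 565 of all genes (3.72%). Their changes were 0.42, 0.26, 0.21 and 0.26, all with an edgeR adjusted p of 1.00. Only Stab1 had groups that did not overlap, with 35.2, 33.0, 35.7 and 34.6 CPM at 0.03 mg/kg-day, against 23.0, 23.1, 30.5 and 27.1 CPM in controls. Over all genes, 3.32% had groups that did not overlap in this comparison, 1.88% higher and 1.44% lower.

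At 0.3 mg/kg-day 0 of 10 members passed, while 0.29% of all genes did. At an unadjusted p under 0.05 there were 2, Stab1 with a change of 0.45 ± 0.14 and Kdr with 0.39 ± 0.10 (edgeR adjusted p = 0.253 and 0.131), as were 1301 of all genes (8.56%). DESeq2 called 1 member, Kdr, and limma-voom 0, while both genes passed with a term for the libraries that stood apart (edgeR adjusted p = 0.0377 for Stab1 and 0.0303 for Kdr). Over all genes, DESeq2 called 186, limma-voom 39 and the fit with that term 306, against 44 by edgeR without it. Only Kdr had groups that did not overlap, as did 6.69% of all genes (3.71% on the high side).

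At 3.0 mg/kg-day 0 of 10 members passed by edgeR, DESeq2 and limma-voom, while 4.61% of all genes passed by edgeR, 3.18% higher and 1.43% lower. At an unadjusted p under 0.05 there were 4, of which Lyve1 was higher and Stab2, Bmp2 and Rspo3 lower, and 2180 of all genes (14.3%). Stab2 alone had groups that did not overlap, and so did 4.95% of all genes on that side and 5.55% on the other. These 4 are among the 6 genes called at 6.0 mg/kg-day, a comparison that shares the same controls.

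In comparisons between doses the control livers are not compared, but they enter through the shared estimate of the spread, the filter and the scaling. At 6.0 against 3.0 mg/kg-day, 2 of 10 members passed, Lyve1 (1.08 ± 0.24, edgeR adjusted p = 0.0183) and Pecam1 (0.46 ± 0.12, edgeR adjusted p = 0.0456), and both were higher, while 2.09% of all genes passed (1.03% higher, 1.06% lower). Neither gene's groups overlapped, which held for 6.46% of all genes (3.26% higher, 3.2% lower). Lyve1 did not pass without library 17 or 18, with changes of 0.96 and 0.97 (edgeR adjusted p = 0.0899 and 0.0804). Pecam1 passed in 4 of 20 fits that each left out 1 library (3, 11, 19 or 23), and in the other 16 its edgeR adjusted p was up to 0.174. The changes of Stab1 (-0.45 ± 0.14) and Stab2 (-0.36 ± 0.13) did not pass (edgeR adjusted p = 0.114 and 0.148). Both passed without library 23, at -0.57 and -0.50 (edgeR adjusted p = 0.0248 and 0.0144).

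At 6.0 against 0.03 mg/kg-day, 5 of 10 members passed, while 27.5% of all genes did. Lyve1 was higher (1.80 ± 0.25, edgeR adjusted p = 2.00e-05). Stab2 (-0.97 ± 0.13, edgeR adjusted p = 1.07e-05), Stab1 (-0.87 ± 0.14, edgeR adjusted p = 0.000133), Kdr (-0.47 ± 0.10, edgeR adjusted p = 0.00171) and Bmp2 (-0.48 ± 0.13, edgeR adjusted p = 0.00923) were lower. The groups of these 5 genes did not overlap, nor did those of Pecam1, which did not pass (0.28 ± 0.12, edgeR adjusted p = 0.0864). Over all genes 22.3% had groups that did not overlap here, 11.2% higher and 11.1% lower. Stab1 had 18.3, 14.9, 23.3 and 19.0 CPM at 6.0 mg/kg-day, against 35.2, 33.0, 35.7 and 34.6 CPM at 0.03 mg/kg-day. These 5 calls held in each of the 20 fits that left out 1 library. Clec4g passed as well without library 23 (0.67, edgeR adjusted p = 0.0226), and Rspo3 without library 21 (-0.49, edgeR adjusted p = 0.0255).

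In the joint test for a difference at any dose, 6 of 10 members passed, namely Stab1, Stab2, Lyve1, Kdr, Pecam1 and Bmp2, while 21.4% of all genes passed. Kdr had an edgeR adjusted p of 0.000552 there, and its means in order of dose were 60.9 ± 5.24 (control), 70.6 ± 5.48, 79.7 ± 6.45, 58.0 ± 2.88 and 50.9 ± 5.28 CPM (SD, n = 4 each). Stab1 had the same shape, at 25.9 ± 3.61 (control), 34.6 ± 1.16, 35.3 ± 5.08, 25.8 ± 3.17 and 18.9 ± 3.48 CPM (SD, n = 4 each), with an edgeR adjusted p of 0.000364. Both were highest at 0.3 and lowest at 6.0 mg/kg-day. A slope on dose rank was called for 5 of 10 members, Lyve1 and Pecam1 upward and Stab2, Bmp2 and Rspo3 downward, while 26.4% of all genes had such a slope. Stab1 and Kdr were not among them (edgeR adjusted p = 0.0633 and 0.118). Without library 22, Pecam1 and Bmp2 did not pass the joint test (edgeR adjusted p = 0.0588 and 0.0574), and Rspo3 passed it without library 2 or 21 (edgeR adjusted p = 0.0498 and 0.0304). The slope of Pecam1 did not pass without library 1, 2, 4, 21, 22, 23 or 24 (edgeR adjusted p from 0.0514 to 0.123), nor that of Rspo3 without library 3 or 24 (edgeR adjusted p = 0.0587 and 0.0596). The slope of Stab1 passed without library 1, 2, 4 or 15 (edgeR adjusted p from 0.0228 to 0.0476).

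Ratios of counts within a library need no scaling between libraries. Stab2 had 5.45 to 7.50 counts per Lyve1 count at 6.0 mg/kg-day and 27.5 to 43.9 in controls. The ratio was 38.8 to 56.2, 28.8 to 52.1 and 12.9 to 24.4 at 0.03, 0.3 and 3.0 mg/kg-day. So the livers at 3.0 mg/kg-day lay below all controls and above all livers at 6.0 mg/kg-day. Per Pecam1 count, Stab2 had 1.52 to 3.00 counts at 6.0 mg/kg-day and 4.58 to 5.91 in controls, and Kdr had 3.54 to 4.45 at 6.0 mg/kg-day and 5.95 to 7.75 in controls. The pairs set genes that were lower over genes that were higher, so the ratios restate those changes, and they have no test.

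**Figure D3:**
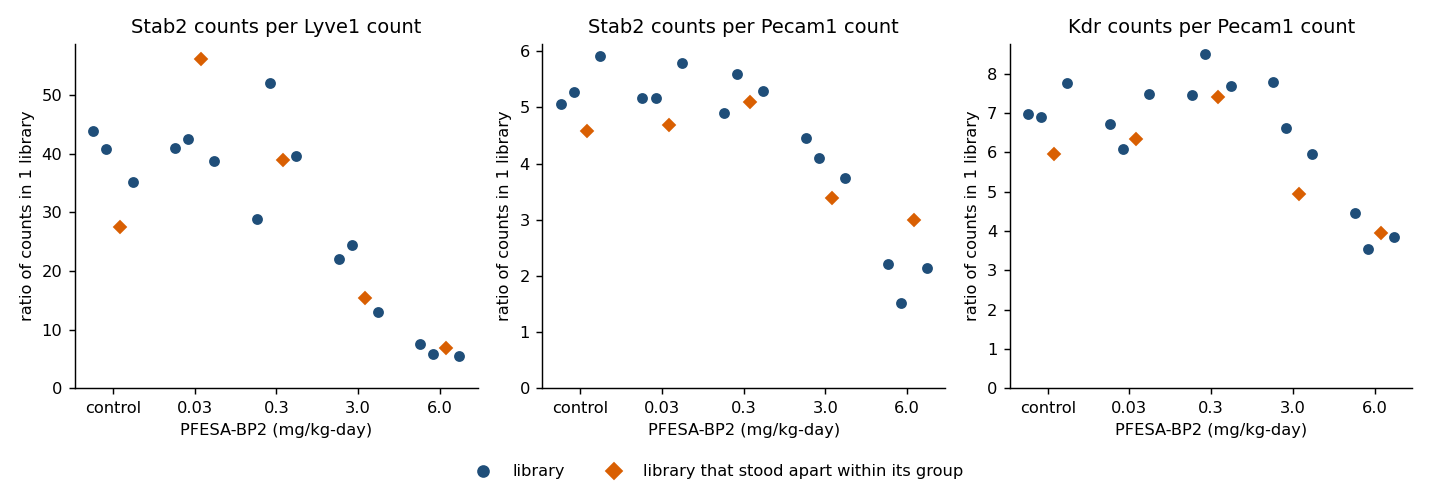
Ratio of counts of 2 genes within each library (y axis, linear, from 0) by dose of PFESA-BP2 (x axis, low to high), with 1 point per library and diamonds for the 5 libraries that stood apart. Stab2 per Lyve1 is 5.45 to 7.50 at 6.0 mg/kg-day, against 27.5 to 43.9 in controls.

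The libraries that stood apart touched some members far more than others. In a fit with a term for them, Clec4g was lower in these 5 libraries by -0.75 on the log2 scale (edgeR adjusted p = 1.62e-06) and Oit3 by -0.52 (edgeR adjusted p = 2.65e-05), and both had their lowest value there in 5 of 5 groups. Wnt2 was lower by -0.49 (edgeR adjusted p = 0.0105), with the lowest value in 4 of 5 groups. Stab1 was higher by 0.23 (edgeR adjusted p = 0.0206), with the highest value in 4 of 5 groups. The other 6 members did not pass, while 50.1% of all genes did. That share rests on the genes that picked the libraries, so it is no independent background. The members were left out of that choice, but they were measured in the same libraries as the genes that made it. Their p-values for this term are therefore no independent test either. Clec4g was at 25.2 to 30.9 CPM in these libraries, across all doses. The widest gaps were in library 23 at 6.0 mg/kg-day, where Wnt2 had 1.79 CPM, against a mean of 4.78 CPM in the other 3 livers, and Clec4g 25.2 CPM, against 60.5 CPM. What sets these libraries apart was not tested.

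**Figure D4:**
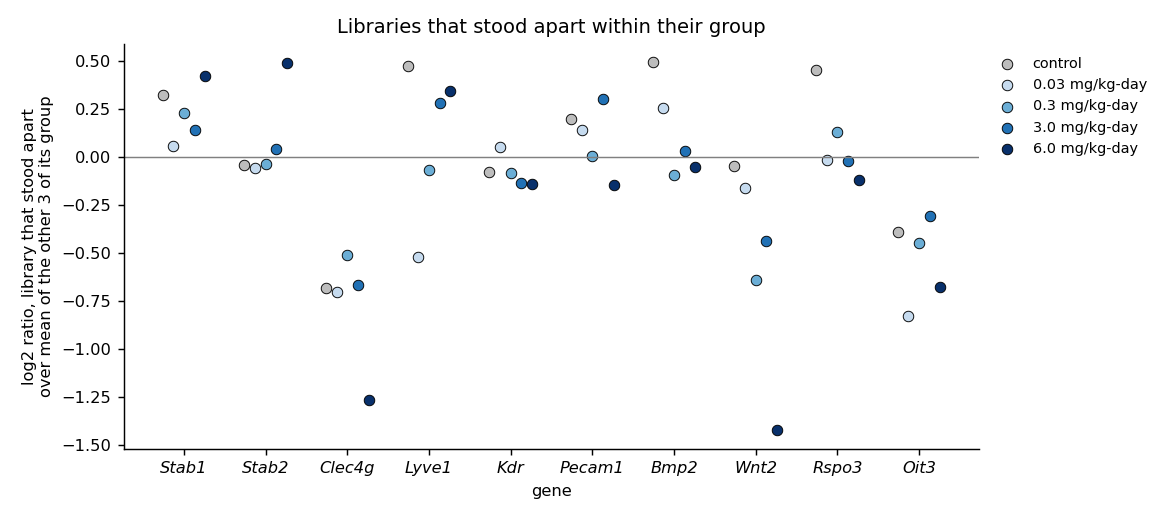
Log2 ratio of the level in the library that stood apart over the mean of the other 3 libraries of its group (y axis), for each gene (x axis) and dose (shade). Clec4g and Oit3 are below 0 in all 5 groups, and Stab1 is above 0 in all 5.

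The partners of the angiocrine ligands were measured alongside. Of 18 receptors and partners of WNT and R-spondin, 10 were lower and 0 higher in the 6.0 mg/kg-day livers. Over all genes, 11.2% were lower and 11.2% higher. The median change of the 18 was -0.55, against -0.02 for all genes. Lgr5, a receptor for R-spondins, was at 1.61 to 2.80 CPM at 6.0 mg/kg-day and 9.84 to 13.6 CPM in controls (-2.36 ± 0.24, edgeR adjusted p = 4.71e-07). Its relative Lgr4 fell by 1.00 ± 0.14 on the log2 scale, the WNT receptors Fzd8 and Fzd7 by 1.16 and 0.50, and the coreceptor Lrp5 by 0.91. Rnf43 and Znrf3, ligases that remove WNT receptors and are opposed by R-spondins, fell by 0.78 each. Porcn, the enzyme that acylates WNT ligands, fell by 1.16, and the transcription factors Tcf7l1 and Tcf7l2 by 0.78 and 0.60. The coreceptor Lrp6 (-0.38) and the WNT carrier Wls (0.10) did not pass. Among these 18, Lgr5 alone passed at 3.0 mg/kg-day, where it fell by 1.00 on the log2 scale (edgeR adjusted p = 0.00769). At that dose 4.61% of all genes passed.

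Of 16 WNT target genes of liver, 13 were lower and 1 higher in the 6.0 mg/kg-day livers. Over all genes, 11.2% were lower and 11.2% higher. The median change of the 16 was -1.07. The glutamate transporter Slc1a2 was at 27.0 to 46.5 CPM at 6.0 mg/kg-day and 167 to 210 CPM in controls (-2.53 ± 0.22, edgeR adjusted p = 8.37e-08). Glutamine synthetase (Glul) was at 172 to 362 CPM at 6.0 mg/kg-day and 594 to 875 CPM in controls (-1.52 ± 0.23, edgeR adjusted p = 5.14e-05). The feedback inhibitors Axin2 and Notum fell by 1.54 and 1.64 and the transcription factor Tbx3 by 1.05. The ammonium channel Rhbg fell by 1.17, the ornithine aminotransferase Oat by 1.09, the feedback inhibitor Nkd1 by 1.08, the P450 Cyp2e1 by 0.95 and Rgn by 0.52. The P450 Cyp1a2, the exception, rose by 0.90 ± 0.29 (edgeR adjusted p = 0.0274). The 3.0 mg/kg-day livers had 6 lower and 0 higher, against 1.43% of all genes lower and 3.18% higher. Lgr5, Rnf43 and Znrf3 are in both WNT lists. Wnt2 itself did not pass at any dose, and Rspo3 fell by 0.47. The part of the ligands in the fall of the targets was not tested.

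Of 9 BMP target genes, 3 were lower and 0 higher in the 6.0 mg/kg-day livers, and the median change was -0.55. Over all genes, 11.2% were lower and 11.2% higher. Hamp, the hepcidin gene, was at 76.2 to 149 CPM at 6.0 mg/kg-day and 145 to 389 CPM in controls (-1.38 ± 0.31, edgeR adjusted p = 0.00305), and the groups overlapped. The transcription factor Atoh8 was at 3.28 to 8.58 CPM at 6.0 mg/kg-day and 11.0 to 16.7 CPM in controls (-1.31 ± 0.24, edgeR adjusted p = 0.000453), and it also fell at 3.0 mg/kg-day (-1.01, edgeR adjusted p = 0.0131). Smad7, an inhibitory SMAD, fell by 0.69, while Id1, a further target, had a change of -0.55 (edgeR adjusted p = 0.106) and Hamp2, the second hepcidin gene, of -0.73 (edgeR adjusted p = 0.106). Hamp and Hamp2 are related genes, and reads may have been split between them. Among 18 BMP receptors, ligands and partners, 8 fell and 2 rose, against the same 11.2% of all genes in each direction. Smad9, a transducer, fell by 1.12, the receptors Acvr2a and Bmpr2 by 0.66 and 0.67, the ligands Bmp10 and Gdf2 by 0.65 and 0.49, and Tmprss6, a protease that restrains hepcidin, by 0.52. Smad5 and Tfr2 fell by 0.59 and 0.49. Bmper, an extracellular BMP binder, rose by 1.68 ± 0.37 (edgeR adjusted p = 0.00245), and Hfe, an upstream activator of hepcidin, by 1.13 ± 0.23 (edgeR adjusted p = 0.00123). Bmp6, the other hepcidin-inducing ligand of endothelium, was at 0.605 to 1.49 CPM at 6.0 mg/kg-day and 1.08 to 2.31 CPM in controls and did not pass (edgeR adjusted p = 0.315).

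Of 8 VEGF ligands and receptors besides Kdr, 2 were lower and 0 higher in the 6.0 mg/kg-day livers. Over all genes, 11.2% were lower and 11.2% higher. The coreceptor Nrp1 was at 48.3 to 67.9 CPM at 6.0 mg/kg-day and 96.7 to 142 CPM in controls (-1.01 ± 0.14, edgeR adjusted p = 2.19e-05), and it fell at 3.0 mg/kg-day too (-0.55, edgeR adjusted p = 0.0218). Flt4, the receptor for VEGF-C, fell by 0.46 (edgeR adjusted p = 0.0422). Flt1 and Vegfa had changes of -0.32 and -0.22 and did not pass (edgeR adjusted p = 0.0781 and 0.350). Of 6 genes of the angiopoietin and HGF axis 1 fell and 0 rose, the HGF receptor Met (by 0.57), while Tek and Angpt2 had changes of -0.08 and 0.58. Of 11 Notch genes 1 fell and 0 rose, the target Hes1 (by 0.76), while Notch2 and Hey1 had changes of -0.47 and 0.73. The VEGF count was near the 22.4% of all genes that passed, and the angiopoietin and Notch counts were below it.

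**Figure D5:**
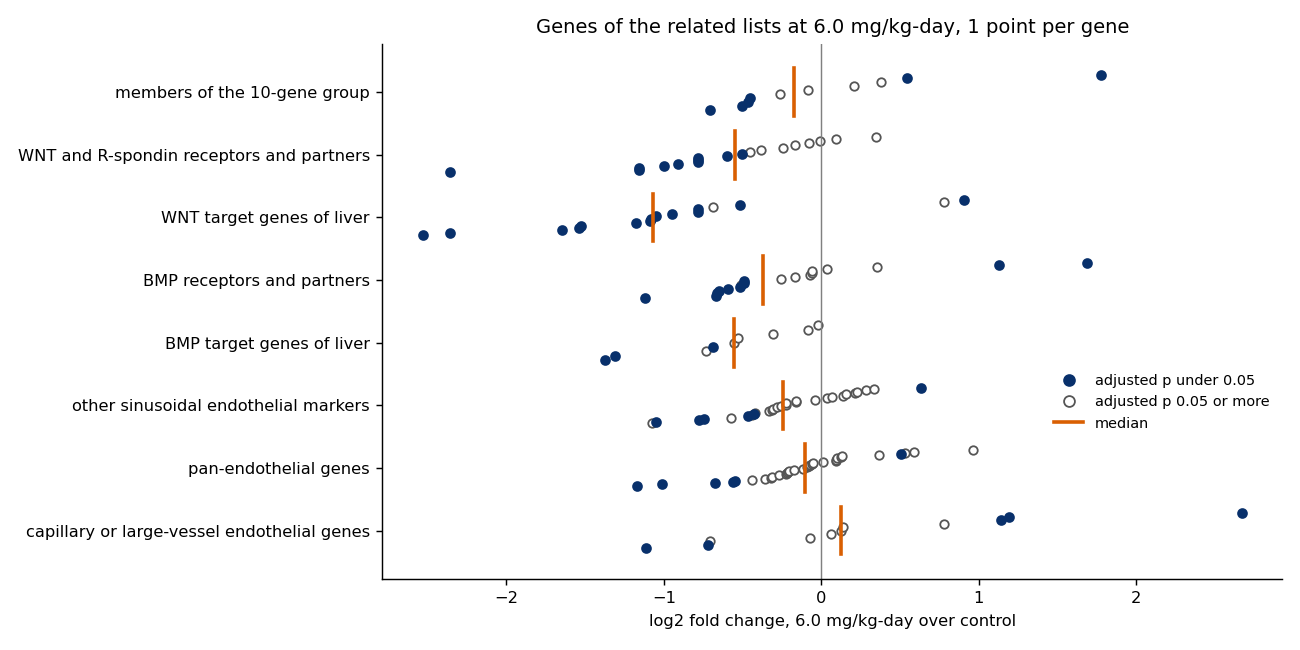
Log2 fold change at 6.0 mg/kg-day over control (x axis) of the 10 sinusoidal genes and of the genes in 7 related lists (rows), with 1 point per gene, filled where it passed the test, and a bar at the median. The medians are -0.55 for WNT and R-spondin receptors, -1.07 for WNT targets, -0.37 for BMP receptors, -0.55 for BMP targets and -0.17 for the 10 genes.

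The shares of other sinusoidal and pan-endothelial genes that passed at 6.0 mg/kg-day were near the 22.4% of all genes. Of 28 other sinusoidal markers, 5 were lower and 1 higher in the 6.0 mg/kg-day livers, and the median change was -0.24. Lifr, a cytokine receptor also made by hepatocytes, fell by 1.05 ± 0.11 (edgeR adjusted p = 1.16e-06), the nuclease Dnase1l3 by 0.74 ± 0.12 (edgeR adjusted p = 0.000142), and the lipid phosphatase Plpp3 by 0.77 ± 0.14 (edgeR adjusted p = 0.000320). Flt4 and the transcription factor Maf fell by 0.46 and 0.43, and Il1a, a cytokine, rose by 0.63 (edgeR adjusted p = 0.0370). The transcription factor Gata4 and the receptors Mrc1 and Fcgr2b had changes of -0.28, -0.22 and -0.30 and did not pass. The summed level of this list was 1321 to 1498 CPM at 6.0 mg/kg-day and 1753 to 1876 CPM in controls. Of 32 pan-endothelial genes, 5 fell and 1 rose, with a median of -0.11. The sphingosine receptor S1pr1 fell by 1.17 ± 0.15 (edgeR adjusted p = 8.86e-06), Nrp1 by 1.01, the diaphragm protein Plvap by 0.68, Eng by 0.56 and Ptprb by 0.55, and Myct1 rose by 0.51. The junction gene Cdh5 had a change of -0.09 and did not pass.

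Of 11 genes of capillaries and larger vessels that were tested, 3 rose and 2 fell. Over all genes 11.2% rose and 11.2% fell. Cav1, the caveolae protein, rose by 1.19 ± 0.25 (edgeR adjusted p = 0.00189), with 2.77 to 9.88 CPM at 6.0 mg/kg-day and 2.16 to 2.91 CPM in controls, and the fatty acid binder Fabp4 by 1.14 ± 0.27 (edgeR adjusted p = 0.00443). Aplnr, the apelin receptor, rose as well (edgeR adjusted p = 0.0153), from very low counts, with 0.202 to 1.10 CPM at 6.0 mg/kg-day and at most 0.171 CPM in controls. Von Willebrand factor (Vwf) and P-selectin (Selp) fell by 0.72 and 1.11. Cd34, a capillary marker, had a change of 0.78 and did not pass (edgeR adjusted p = 0.0688). Of 8 central vein genes Selp fell and 0 rose, while Kit had a change of -0.52. Of 9 portal side genes Ltbp4 fell (by 0.71) and 0 rose, while Msr1 and Ntn4 had changes of 0.41 and -0.23. The central vein and portal counts were near the share of all genes that fell.

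Markers of the other liver cell types are given beside the members, and their part in the results above was not tested. Their counts are to be read against the 22.4% of all genes that passed in this comparison, to which the Kupffer cell count is close. Of 11 hepatocyte markers, 5 were lower and 0 higher in the 6.0 mg/kg-day livers, of 17 stellate cell markers 5 fell and 0 rose, and of 16 Kupffer cell markers 3 fell and 0 rose. Ahsg, Alb and Cps1 of the hepatocyte list fell by 1.74, 0.78 and 0.62, Ecm1 and Rgs5 of the stellate list by 1.10 and 0.84, and Csf1r, Slc40a1 and Cd163 of the Kupffer list by 0.56, 0.54 and 0.57. Of 5 cholangiocyte markers 0 passed, with changes of 0.19 for Spp1, 1.21 for Krt7 and 1.16 for Krt19. Of 6 erythroid markers Alas2 rose by 1.09, and Slc4a1 and Hbb-bt fell by 1.85 and 1.05. The summed stellate level was 319 to 532 CPM at 6.0 mg/kg-day and 502 to 548 CPM in controls, and that of Kupffer cells 609 to 982 CPM at 6.0 mg/kg-day and 797 to 939 CPM in controls. For the hepatocyte list it was 94020 to 127057 CPM at 6.0 mg/kg-day and 144767 to 190402 CPM in controls, without overlap. The Kupffer cell marker Clec4f had a change of 0.07 and did not pass. The summed T, NK and B cell level was 44.5 CPM in library 22 at 6.0 mg/kg-day, and 4.68 to 8.94 CPM in the other 19 libraries. Of 7 of these markers tested, Cd3g rose, while Cd3e and Gzma had changes of 1.78 and 1.52 and did not pass. Without library 22 the changes at 6.0 mg/kg-day were -0.60 for Stab2 (edgeR adjusted p = 0.00130), 1.85 for Lyve1 (edgeR adjusted p = 4.96e-05), 0.49 for Pecam1 (edgeR adjusted p = 0.0103) and -0.48 for Bmp2 (edgeR adjusted p = 0.0263), and those of Stab1 and Rspo3 did not pass.

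Likeness to the mean of the members was measured as Pearson's r over 20 libraries between a gene's log2 CPM and the mean standardised level of the 10 members. The members had no single common pattern. Among Stab1, Stab2, Kdr, Bmp2 and Rspo3 r was 0.61 to 0.91. Clec4g had r of 0.77 with Oit3 and 0.66 with Wnt2, and Lyve1 of 0.66 with Pecam1. Between Stab2 and Lyve1 r was -0.76 over all libraries, but 0.40 for the deviations from the group means. For these deviations r among Stab1, Stab2, Kdr, Bmp2 and Rspo3 was 0.004 to 0.69. Opposite changes over all libraries therefore cancel in the mean, and likeness to it is not likeness to each member. The genes most alike to this mean were Cd300lg (0.84), Abi3bp (0.82), Tek (0.81), Sema6a (0.78) and Trmt2b (0.77). For the deviations from the group means they were 5330438D12Rik (0.83), Rpl5 (0.79), Irf2bp2 (0.78), Gm26823 (0.75) and Cd300lg (0.72). Cd300lg is the gene in both lists. The libraries share depth and scaling, and the values are a description over the most alike of all genes tested.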

How the data were processed

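Liver RNA of 20 mice was sequenced on an Illumina NextSeq, with 80 lane samples (4 per library) in the labels. The deposited table holds estimated counts per gene, of which 59.2% were whole within 1e-09. That unit was read from the values. Per the submitters' processing notes, Partek and GRCm38.p5 were used. The sources used here do not give the aligner, the counting method or the use of strand. Counts were rounded. Rows were filtered with edgeR's filterByExpr (minimum count 10), which kept 15197 and left out 6906, and TMM scaling was used. Tests used the quasi-likelihood fit of edgeR 4.0.16 in R 4.3.3, in 1 fit of 20 libraries with 15 residual degrees of freedom. The SE is the change divided by the root of the F value. DESeq2 1.42.0, limma-voom (limma 3.58.1), other scalings, no filter, fits of only the compared groups and leave-one-out fits were alternatives. Each mouse is 1 replicate. The fits were tested on simulated counts. Coordinates and exon lengths come from GENCODE M21 (GRCm38), and promoters from RefSeq.

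The members and gene lists were chosen with earlier results of these data known. Named genes were all members at every dose, from each list the 3 smallest p in the joint test, and every called gene of the WNT, BMP and VEGF lists at 6.0 mg/kg-day. Other named genes were chosen after their values were seen. List counts under other settings, and the ratios of counts, were added after seeing the data.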

Additional observations from a re-analysis of the deposited data

Results flagged for a closer look

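Of 50 groups of 4 libraries (10 genes at 5 doses), 2 held a library far from the other 3, and chance gives about 1 in 20. Stab2 in library 17 at 3.0 mg/kg-day was at 33.4 CPM, below the other 3 libraries at 36.9 to 37.6 CPM. It is the lowest of a group that lies close together. Oit3 in control library 3, which is 1 of the 5 libraries that stood apart, was at 17.1 CPM, below the other 3 controls at 22.0 to 22.7 CPM.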

How the results depend on the processing

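Over all alternatives 2220 values of single members were compared, of which 0 calls changed sign, 52 were lost and 33 gained. In the comparison of 6.0 mg/kg-day with control, 4 to 6 members were called when each library was left out in turn, and Stab2, Lyve1, Pecam1 and Bmp2 were called each time. With only the 2 groups of the comparison in the fit, 3 were called (Stab2, Lyve1 and Pecam1). Calls over all genes were 1726 in that fit, against 3405 with all groups. At 6.0 against 3.0 mg/kg-day the count was 1 with library totals only, 1 with no filter on low counts, 4 with a term for the libraries that stood apart, 4 without them, 0 with only the 2 groups, and 0 to 4 with each library left out. Calls over all genes there were 318 in the edgeR fit used above, 286 with library totals only and 265 with no filter. They were 1400 with the term, 1476 without the libraries that stood apart, and 0 with only the 2 groups. At 0.3 mg/kg-day DESeq2 called 1 member and the fit with a term for the libraries that stood apart called 2. Over all genes DESeq2 called 186 there and the fit with the term 306, against 44 by edgeR without it. The slope on dose rank was called for 3 members without the libraries that stood apart, for 7 with a term for them, for 6 by DESeq2, and for 3 to 6 with each library left out. With each library left out, 5 to 6 members were called at 6.0 against 0.03 mg/kg-day, 4 to 7 in the joint test, and 0 to 0 at 0.03, 0.3 and 3.0 mg/kg-day against control. The cause of these shifts was not tested. Wnt2 at 6.0 mg/kg-day, never called in this comparison, ranged from -0.27 to 0.17, with the highest value without the libraries that stood apart.

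Under other settings 11 to 13 WNT targets were lower at 6.0 mg/kg-day. Of the WNT and R-spondin receptors and partners 6 were lower with only the 2 groups in the fit, and 10 to 12 under the other settings. The other sinusoidal markers that were lower numbered 3 to 9, and the BMP receptors and partners 3 to 9. A term for the libraries that stood apart raised the calls at 6.0 mg/kg-day to 5639 genes, against 3405 without it, and the members called to 8. That term was drawn from these same data. No paired analysis was possible because no 2 groups share a library number, and a shared place in the order of a group is not stated to pair mice. The low counts of Lyve1 (19 to 28 per control and 0.03 mg/kg-day library) and Wnt2 limit their precision.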

Other observations

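Of the 4 members that did not pass at 6.0 mg/kg-day, Clec4g and Oit3 had higher means there than at any other dose. Without the libraries that stood apart, Clec4g was at 52.2 to 65.4 CPM at 6.0 mg/kg-day and 42.5 to 54.8 CPM in controls, and Oit3 at 27.2 to 32.6 CPM at 6.0 mg/kg-day and 22.0 to 22.7 CPM in controls. The exon overlap neighbour of Stab1, Nt5dc2, shares 112 of 10288 exon bases with it and had a change of 0.09 at 6.0 mg/kg-day (edgeR adjusted p = 0.788).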
